A study of Homo sapiens with 8 samples.

Results

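The 8 BH3-only genes BBC3, BMF, PMAIP1, BCL2L11, BID, BIK, BAD and HRK were followed in 2 human acute myeloid leukaemia cell lines exposed to chlorprothixene, a thioxanthene antipsychotic. They were chosen by gene name, 8 of the 55765 gene names in the deposited tables, and each had 1 row in every table. NB4 is a promyelocytic line with the PML-RARA fusion, and Kasumi-1 has the RUNX1-RUNX1T1 fusion. The 8 libraries are 6 treated ones, taken 6, 12 and 24 h into exposure to 40 uM chlorprothixene in each line, and 1 untreated one per line. No condition has a replicate, no vehicle control is given in the sources used here, and 1 untreated library stands for all times of a line, so the drug and the time in culture cannot be told apart.

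BH3-only proteins are the sensors of the mitochondrial route to apoptosis. Each carries a short BH3 helix that fits the groove of pro-survival proteins such as BCL2 and MCL1, and some also activate the effectors BAX and BAK1, which open the outer mitochondrial membrane. BBC3 (PUMA), PMAIP1 (NOXA) and BMF are known for control through the amount of their mRNA, whereas BAD is switched mainly by phosphorylation and BID by proteolytic cleavage. An mRNA level therefore does not give the active amount of protein.

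The pattern used to search for the BH3 stretch was a leucine codon, 3 codons of any kind, a glycine or alanine codon, and an aspartate or glutamate codon. A search of the coding sequences of GENCODE 29 (1 principal transcript per gene, GRCh38) found this pattern in 7 of the 8 genes. The stretches below run 5′ to 3′ in frame over 42 bases, with the 6 codons of the pattern in capitals, so that the part the proteins share can be set beside their unlike mRNA levels. Codons 141 to 146 of 193 hold it in BBC3, 29 to 34 of 54 in PMAIP1, and 92 to 97 of 138 in BCL2L11. BMF had 2 matches, of which the one at codons 137 to 142 is shown. BAD had 0 matches to this strict pattern.

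BBC3: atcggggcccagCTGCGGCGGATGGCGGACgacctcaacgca
BMF: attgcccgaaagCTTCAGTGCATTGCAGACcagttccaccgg
PMAIP1: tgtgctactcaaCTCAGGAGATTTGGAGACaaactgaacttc
BCL2L11: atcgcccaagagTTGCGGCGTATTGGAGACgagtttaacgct
BID: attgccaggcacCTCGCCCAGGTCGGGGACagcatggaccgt
BIK: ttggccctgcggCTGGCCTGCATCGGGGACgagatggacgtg
HRK: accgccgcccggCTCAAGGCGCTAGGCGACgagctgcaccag

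Upstream DNA is shown for BBC3 and BMF, the members with the largest differences, and for BCL2L11, a textbook FOXO target whose level stood near untreated. The sequences are the 250 bases before the annotated start, from RefSeq (GRCh38.p14), written along the gene from 5′ to 3′. Capitals mark matches on either strand to the motifs searched, which were FOXO (GTAAACA), AP-1 (TGANTCA), SP1 (GGGCGG) and the CHOP-ATF4 composite element (TGATGNAA).

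BBC3, chr19:47232668-47232917, minus strand: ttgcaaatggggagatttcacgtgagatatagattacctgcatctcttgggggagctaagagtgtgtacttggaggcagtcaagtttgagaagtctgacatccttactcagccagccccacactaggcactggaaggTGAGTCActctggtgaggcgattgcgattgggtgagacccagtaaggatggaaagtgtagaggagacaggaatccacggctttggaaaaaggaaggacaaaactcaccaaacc
BMF, chr15:40108880-40109129, minus strand: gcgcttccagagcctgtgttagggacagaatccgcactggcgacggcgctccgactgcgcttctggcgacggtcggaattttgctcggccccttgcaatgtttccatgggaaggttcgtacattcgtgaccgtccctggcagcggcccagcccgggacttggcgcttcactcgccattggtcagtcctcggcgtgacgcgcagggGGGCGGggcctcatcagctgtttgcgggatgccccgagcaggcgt
BCL2L11, chr2:111120664-111120913, plus strand: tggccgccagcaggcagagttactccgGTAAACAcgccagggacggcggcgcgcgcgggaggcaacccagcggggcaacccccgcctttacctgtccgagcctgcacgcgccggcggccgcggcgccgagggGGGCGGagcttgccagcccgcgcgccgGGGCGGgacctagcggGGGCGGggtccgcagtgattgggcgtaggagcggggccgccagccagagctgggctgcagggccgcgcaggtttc

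BBC3 held 1 AP-1 match 113 bases before its start and no match to the other motifs. AP-1 matches occur in 6.57% of the 35116 upstream windows of this length. BMF held 1 SP1 match 45 bases before its start, a motif found in 42.6% of windows, and a further RefSeq window of BMF held 0 matches. BCL2L11 held 1 FOXO match 223 bases before its start, found in 2.98% of windows, and 3 SP1 matches. The CHOP-ATF4 element (3.14% of windows) was in none of these 3 windows. A match is a run of letters, not an occupied site, and these windows do not cover other starts or introns.

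The lines showed the myeloid markers MPO and SPI1 in every library (lowest levels 1528 and 132.4 TPM). The sum of the 4 myeloid markers was lower in treated NB4, at 5247, 3528, 2578 and 1971 TPM (untreated, 6, 12 and 24 h), and Kasumi-1 had 10103, 11701, 9357 and 9557 TPM. These sums are mostly MPO, which ranged from 1528 to 4889 TPM in NB4. CD33, SPI1 and CEBPA ranged there from 47.8 to 61.5, 222.4 to 327.1 and 68.9 to 92.8 TPM. The lower sum in treated NB4 therefore mainly reflects MPO. RUNX1T1, KIT and CD34, which mark Kasumi-1, stood at or below 0.311 TPM in NB4 and at 18.3 TPM or more in Kasumi-1. Their sum in Kasumi-1 was 654.1, 171.7, 209.6 and 330.9 TPM (untreated, 6, 12 and 24 h). The part of these shifts in the results on BH3-only genes was not tested. The 4 erythroid markers were at 0 in all 8 libraries, and the summed T cell and fibroblast markers reached at most 0.572 and 0.286 TPM. EPCAM, an epithelial marker, lay between 15.7 and 29.7 TPM, and KRT19 was at 0. TPM is an abundance per transcript length set to one common total per library. Mitochondrially encoded genes took 5.04% to 10.6% of that total in 7 libraries and 17.1% in Kasumi-1 at 24 h. Read numbers are not in the tables, and the mean coverage of the members is given where it is low.

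BBC3 (ENSG00000105327.11, chromosome 19, 47724081 to 47736023, minus strand, hg19 as deposited) encodes PUMA, which binds every main pro-survival protein. In NB4 it stood at 21.4 TPM untreated and at 95.6, 63.0 and 62.0 TPM after 6, 12 and 24 h. In Kasumi-1 it stood at 2.91 TPM untreated and at 30.3, 15.8 and 10.2 TPM after 6, 12 and 24 h. All 6 treated libraries were above the untreated library of their line, and in both lines the 6 h library was the highest. The ratios to untreated were 4.47, 2.94 and 2.90 in NB4 at these times, and Kasumi-1 had 10.4, 5.42 and 3.50. The untreated Kasumi-1 level rests on a mean coverage of 2.14 reads per base, so the larger ratios there divide by a thinly covered value. In such bulk libraries, a change in every cell and a change in some of the cells cannot be told apart, nor can fewer cells of a kind and less RNA per cell.

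BMF (ENSG00000104081.9, chromosome 15, 40380091 to 40401093, minus strand) encodes a protein held on the cytoskeleton by dynein light chain until it is released. It stood at 3.50, 13.0, 23.7 and 41.3 TPM in NB4 (untreated, 6, 12 and 24 h). In Kasumi-1 it stood at 3.09, 14.5, 12.5 and 16.0 TPM at the same times. The untreated and 6 h levels of the lines lay close together, and at 24 h NB4 was far above Kasumi-1. In NB4 the treated libraries were 3.70, 6.77 and 11.8 times untreated, and in Kasumi-1 the ratios were 4.70, 4.06 and 5.18. The untreated levels under these ratios rest on mean coverages of 7.30 (NB4) and 5.77 (Kasumi-1) reads per base.

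**Figure D1:**
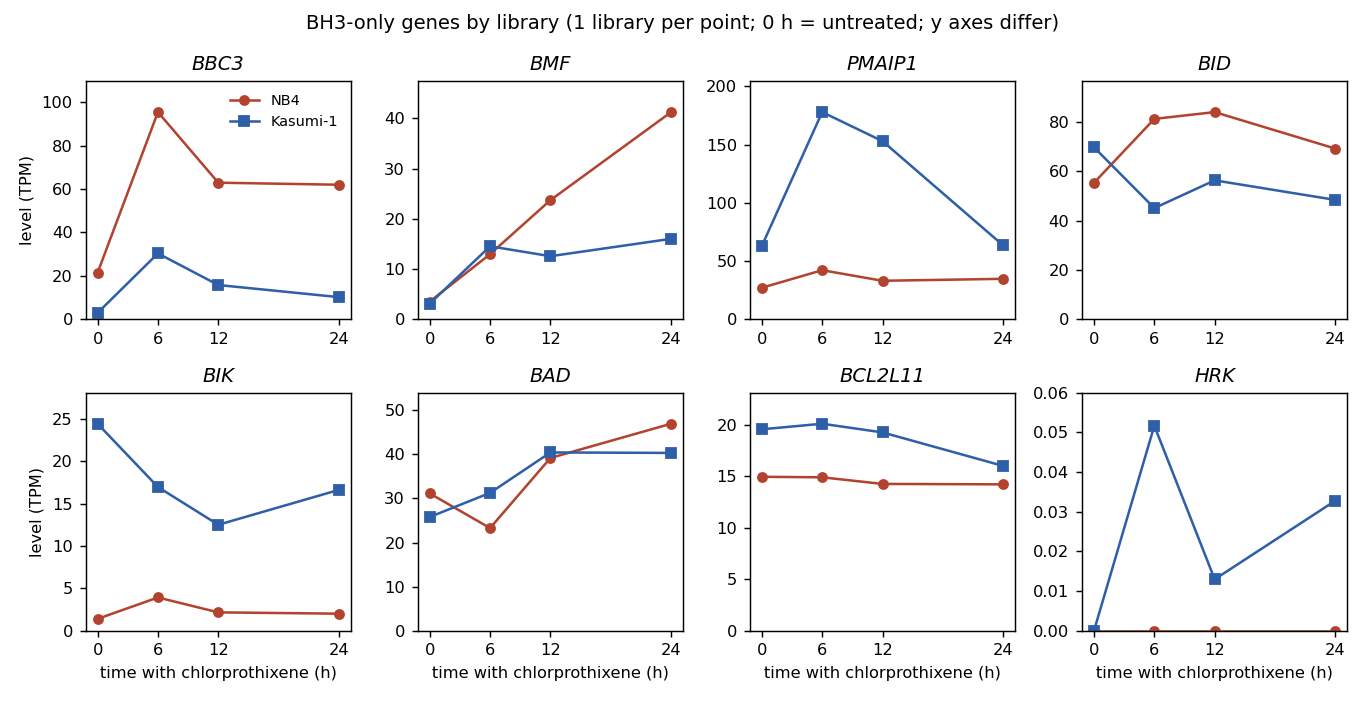
Level in TPM (vertical axes, which differ between panels) of each BH3-only gene against time with chlorprothixene in hours, with 1 point per library, NB4 as circles and Kasumi-1 as squares. BBC3 has its highest point at 6 h in both lines, BMF reaches 41.3 TPM in NB4 at 24 h, and BID and BIK lie on opposite sides of their untreated levels in the lines.

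The shared response, the mean of 6, 12 and 24 h minus untreated with the cell line as a term, was fitted by limma over the 14650 genes that averaged 1 TPM or more. Its spread is how unlike the lines were at the same times (3 residual degrees of freedom), not a spread between cultures. BBC3 was higher by 1.96 on the log2(TPM + 1) scale (SE 0.21, adjusted p = 0.0607 by limma with Benjamini-Hochberg adjustment), ranking 9 by p-value among all genes tested. BMF was higher by 2.17 (SE 0.30, limma adjusted p = 0.0638) and ranked 39. Neither passed the threshold of 0.05, and 0 of the 7 members tested did, against 4 genes higher (0.0273%) and 0 lower (0.0%) over all genes. By unadjusted limma p-values under 0.05, 3 members (BBC3, BMF and PMAIP1) stood higher and 0 lower, against 9.3% of all genes higher and 11.1% lower. The median change was 0.34 over the 7 members and -0.03 over all genes tested. HRK is not among the 7, since it did not reach the minimum level.

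The call for BBC3 and BMF turned on the settings. With treated times taken as repeats of a line, both passed in limma (adjusted p = 0.0461 for BBC3 and 0.0403 for BMF). BBC3 also passed among genes averaging 5 TPM or more (adjusted p = 0.0472) and with TPM rescaled without the mitochondrial and most abundant genes (adjusted p = 0.0489). Over all 15 alternatives the limma adjusted p lay between 0.0461 and 0.219 for BBC3 and between 0.0403 and 0.219 for BMF, and the log2 difference between 1.70 and 2.21 and between 1.89 and 2.44. No fit that left out 1 library called either gene (limma adjusted p of 0.0562 to 0.213 for BBC3 and 0.0679 to 0.213 for BMF).

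Counted by size alone, BBC3 and BMF were at least 2-fold higher (a difference of 1 in log2(TPM + 1)) in all 6 treated libraries, as were 41 of 14650 genes (0.28%). At all 3 times in NB4 these were again the only members past that size, against 2.03% of genes, and likewise in Kasumi-1, against 1.88%. The 3 times of a line share 1 untreated library. At 12 and 24 h in NB4 they were the 2 members past 2-fold, against 5.6% and 6.51% of genes, and at 24 h in Kasumi-1 against 5.11%. BBC3, BMF and PMAIP1 were the 3 members above untreated in all 6 treated libraries, as were 12.9% of genes. No member was 2-fold lower at any time, against 2.27%, 2.37% and 2.88% of genes in NB4 and 2.99%, 3.52% and 3.88% in Kasumi-1 (6, 12 and 24 h). In all 6 treated libraries 0.0341% of genes were 2-fold lower.

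Counted by direction alone, 5 members (BBC3, BMF, PMAIP1, BID and BIK) lay above untreated at all 3 times in NB4, against 30.6% of genes, and 1 member (BCL2L11) below, against 32.2%. In Kasumi-1, 4 members (BBC3, BMF, PMAIP1 and BAD) lay above at all 3 times, against 28.2% of genes, and 2 (BID and BIK) below, against 36.0%. Again the 3 times lean on the same untreated library.

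**Figure D2:**
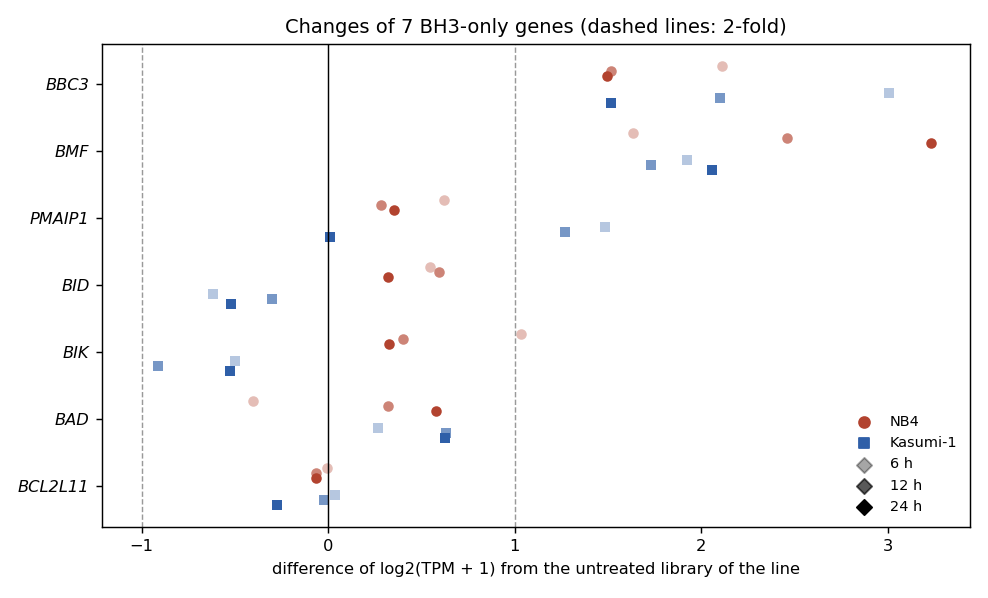
Treated minus untreated log2(TPM + 1) within a line (horizontal axis) for 7 BH3-only genes, with NB4 as circles above and Kasumi-1 as squares below, darker with time. BBC3 and BMF lie past the dashed 2-fold line in all 6 treated libraries, PMAIP1 only in Kasumi-1 at 6 and 12 h.

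PMAIP1 (ENSG00000141682.11, chromosome 18, 57567180 to 57571538, plus strand) encodes NOXA, which binds chiefly MCL1 and BCL2A1. NB4 had 27.0, 42.1, 33.0 and 34.7 TPM (untreated, 6, 12 and 24 h), all 3 treated libraries above untreated and none at 2-fold. Kasumi-1 had 62.9, 178.0, 153.0 and 63.3 TPM at the same times, so that the gene was high at 6 and 12 h and back at its untreated level by 24 h. The 24 h Kasumi-1 library also had the highest mitochondrial share (17.1%). With TPM rescaled without the mitochondrial and most abundant genes, the counts of members past 2-fold were the same at every time. Such counts cannot show a small shift, and the part of this share in the 24 h level of PMAIP1 was not tested. Over both lines, 24 h minus 6 h of PMAIP1 was -0.80 with that rescaling and -0.87 without it. In Kasumi-1 at 6 h and at 12 h, 3 members (BBC3, BMF and PMAIP1) were at least 2-fold higher, against 6.44% and 4.85% of genes. The shared log2 difference was 0.67 (SE 0.27, limma adjusted p = 0.236). It was 0.42 from NB4 and 0.92 from Kasumi-1 when the fit lost the untreated library of the other line. The response difference between the lines, NB4 minus Kasumi-1, was -0.50 (SE 0.71, limma adjusted p = 0.849).

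The early and late libraries were set against each other as 24 h minus 6 h over both lines. BBC3 differed by -1.05 (SE 0.26) and PMAIP1 by -0.87 (SE 0.34), both lower at 24 h, and BMF by 0.87 (SE 0.36) and BAD by 0.67 (SE 0.21), both higher at 24 h. None of these 4 passed in limma (adjusted p = 0.554, 0.628, 0.633 and 0.577), where 0 of 14650 genes were called (0.0% higher and 0.0% lower). Limma's unadjusted p was under 0.05 for 2 members higher and 2 lower, against 4.05% and 3.82% of genes. Kasumi-1 carried most of the difference for BBC3 and PMAIP1, and NB4 for BMF. The sizes rest on single libraries. Leaving out the 6 or the 24 h library of NB4 gave 0.40 or 0.35 for BMF, and leaving out those of Kasumi-1 gave 1.33 or 1.38. For PMAIP1 the values were -0.55 or -0.40 when Kasumi-1 lost its 6 or 24 h library, and -1.35 when NB4 lost its 24 h library. BAD was 0.39 without NB4 at 6 h. In such fits the unadjusted limma p was above 0.05 for BMF (0.364 without NB4 at 6 h), PMAIP1 (0.3 without Kasumi-1 at 24 h) and BAD (0.159 without NB4 at 6 h), and that of BBC3 was 0.0538 without Kasumi-1 at 6 h.

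BID (ENSG00000015475.14, chromosome 22, 18216906 to 18257536, minus strand) encodes the protein that caspase-8 cleaves to link death receptors to mitochondria. NB4 had 55.4, 81.3, 84.1 and 69.3 TPM (untreated, 6, 12 and 24 h). Kasumi-1 had 69.8, 45.1, 56.4 and 48.4 TPM at the same times. Every treated library was above untreated in NB4 and below it in Kasumi-1, so that the shared log2 difference was 0.00 (SE 0.22, limma adjusted p = 0.996). It was -0.48 without the untreated NB4 library (limma adjusted p = 0.213) and 0.49 without the untreated Kasumi-1 library.

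BIK (ENSG00000100290.2, chromosome 22, 43506754 to 43525718, plus strand) encodes a BH3-only protein of the endoplasmic reticulum. NB4 had 1.41, 3.94, 2.18 and 2.02 TPM (untreated, 6, 12 and 24 h), and Kasumi-1 had 24.5, 17.0, 12.5 and 16.7 TPM. The untreated NB4 level rests on a mean coverage of 5.42 reads per base. As with BID, treated libraries lay above untreated in NB4 and below it in Kasumi-1. At 6 h in NB4, BIK joined BBC3 and BMF as the members at least 2-fold higher, against 3.06% of genes. With FPKM in place of TPM, 2 members and not 3 were past that size, BIK being the one lost. Its shared log2 difference was -0.03 (SE 0.31, limma adjusted p = 0.968), and 0.59 without the untreated Kasumi-1 library (limma adjusted p = 0.409).

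The mean log2 change of BID was 0.49 in NB4 and -0.48 in Kasumi-1, and the difference of 0.97 (SE 0.27) did not pass the test of the product of line and treatment (limma adjusted p = 0.315, unadjusted p = 0.00785). That model sets the 3 treated times of a line, as repeats, against 1 untreated library, so its spread is the spread between times and not between cultures. For BIK the means were 0.59 in NB4 and -0.65 in Kasumi-1, a difference of 1.23 (SE 0.48, limma adjusted p = 0.428, unadjusted p = 0.0327). In that test 0 members were called, against 0.0887% of genes higher and 0.041% lower. Unadjusted limma p-values under 0.05 put BID and BIK higher, against 6.37% of genes, and 0 members lower, against 4.22%. Opposite directions of this kind, above untreated at all times in NB4 and below in Kasumi-1, were shared by 6.7% of the genes tested. The 3 changes in NB4 lay above the 3 in Kasumi-1 without overlap for BID and BIK, as for 25.3% of genes.

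BAD (ENSG00000002330.9, chromosome 11, 64037302 to 64052176, minus strand) encodes a protein that 14-3-3 proteins hold back while survival kinases keep it phosphorylated. NB4 had 31.1, 23.3, 39.2 and 46.9 TPM (untreated, 6, 12 and 24 h), and Kasumi-1 had 25.8, 31.2, 40.4 and 40.3 TPM. In 5 of 6 treated libraries it was above untreated, NB4 at 6 h being the exception. The shared log2 difference was 0.34 (SE 0.17, limma adjusted p = 0.32), and became 0.51 when the fit lost untreated NB4 and 0.17 when it lost untreated Kasumi-1. GPR137 overlaps BAD on the opposite strand, with 29.3, 43.9, 40.1 and 45.5 TPM in NB4 (untreated, 6, 12 and 24 h), and in Kasumi-1 with 10.6, 14.3, 17.7 and 14.3 TPM. Whether strand was used in counting is not given in the sources used here, so the division of reads between BAD and GPR137 is uncertain.

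BCL2L11 (ENSG00000153094.17, chromosome 2, 111876955 to 111926024, plus strand) encodes BIM, which binds every main pro-survival protein and can activate BAX directly. NB4 had 14.9, 14.9, 14.2 and 14.2 TPM (untreated, 6, 12 and 24 h), and Kasumi-1 had 19.5, 20.1, 19.2 and 16.0 TPM. These were the flattest profiles of the 7 tested members, with a shared log2 difference of -0.07 (SE 0.15, limma adjusted p = 0.84). Its mean coverage lay between 4.18 and 9.16 reads per base.

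HRK (ENSG00000135116.5, chromosome 12, 117293949 to 117319246, minus strand), known mainly from neurons, was listed at 0 in all 4 NB4 libraries and in untreated Kasumi-1. In treated Kasumi-1 it stood at 0.052, 0.013 and 0.033 TPM after 6, 12 and 24 h, with a mean coverage of at most 0.087 reads per base. No change can be read from such values.

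Some BH3-only mRNAs differed in level between the lines, as many genes of any kind did. In the additive limma model BBC3 was higher in NB4 than in Kasumi-1 by 2.14 on the log2 scale (SE 0.19, adjusted p = 1.1e-04). The spread in this model is again how much the line difference varied between times (3 residual degrees of freedom). No spread between cultures of a line was measured. BIK was lower in NB4 (log2 difference -2.48, SE 0.27, adjusted p = 3.1e-04), and PMAIP1 likewise (log2 difference -1.57, SE 0.24, adjusted p = 0.00143). For BIK, PMAIP1 and BCL2L11, all 4 NB4 libraries were below all 4 Kasumi-1 libraries, as for 24.5% of genes. For 0 members did all NB4 libraries lie above all Kasumi-1 libraries, against 22.8% of genes. BBC3 overlapped, because untreated NB4 (21.4 TPM) was below Kasumi-1 at 6 h (30.3 TPM). The 3 calls, 1 higher and 2 lower, stand against a background of 27.5% of genes higher and 27.8% lower, so line differences were common. By unadjusted limma p-values under 0.05 it was 1 member higher, against 30.4% of genes, and 3 lower (BCL2L11 as well), against 30.6%.

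BMF (log2 difference 0.54, SE 0.26, adjusted p = 0.115), BID (0.40, SE 0.19, adjusted p = 0.125), BAD (0.01, SE 0.15, adjusted p = 0.977) and BCL2L11 (-0.34, SE 0.13, adjusted p = 0.0641) did not pass for the line difference in limma. BID passed without the untreated NB4 library (0.64, limma adjusted p = 0.0074) or without the untreated Kasumi-1 library (0.64, limma adjusted p = 0.00748). BCL2L11 passed with rescaled TPM (-0.43, limma adjusted p = 0.0299) and with times as repeats (-0.34, limma adjusted p = 0.044). Over all 15 alternatives the adjusted p lay between 0.0074 and 0.379 for BID and between 0.0299 and 0.188 for BCL2L11.

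**Figure D3:**
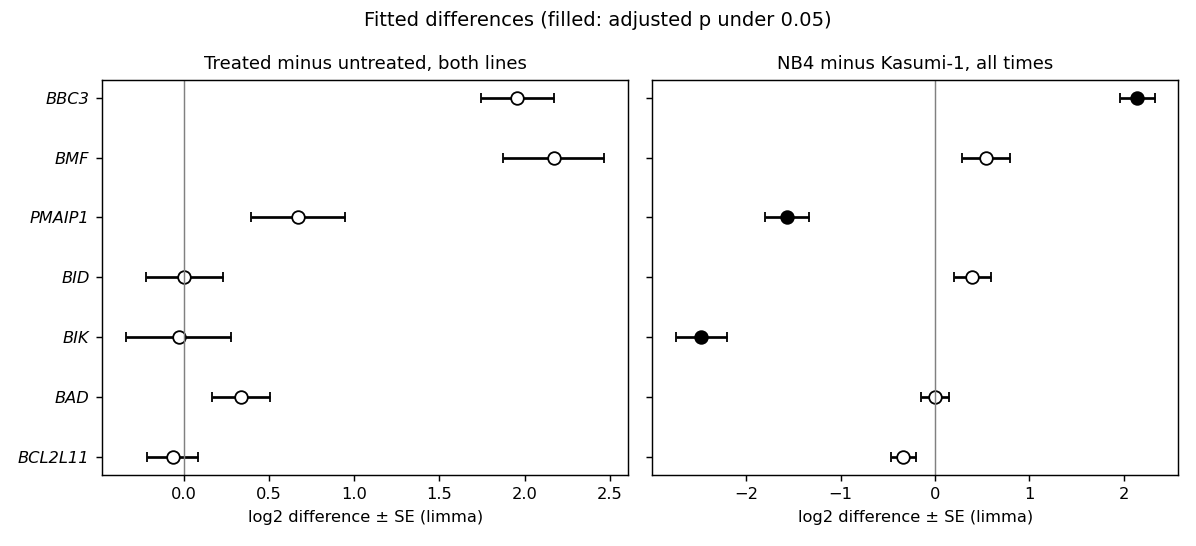
Fitted log2 differences (horizontal axes, limma, bars are 1 SE) of 7 BH3-only genes for treated minus untreated over both lines (left) and NB4 minus Kasumi-1 over all times (right). Filled points have an adjusted p under 0.05, which holds for BBC3, PMAIP1 and BIK on the right and for none on the left.

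Summed over the 8 genes, BH3-only mRNA stood at 154.7, 274.0, 259.4 and 270.4 TPM in NB4 (untreated, 6, 12 and 24 h) and at 208.5, 336.3, 309.9 and 210.9 TPM in Kasumi-1. The sum stayed above untreated to 24 h in NB4, and in Kasumi-1 it was back near the untreated value at 24 h. In untreated NB4 the order of levels was BID, BAD, PMAIP1, BBC3, BCL2L11, BMF, BIK and HRK. In untreated Kasumi-1 it was BID, PMAIP1, BAD, BIK, BCL2L11, BMF, BBC3 and HRK. BBC3 supplied 13.8% of the sum in untreated NB4 and 34.9% at 6 h, when it was the most abundant member. PMAIP1 supplied 30.2% of the sum in untreated Kasumi-1 and 52.9%, 49.4% and 30.0% at 6, 12 and 24 h, the most abundant member at each treated time. BMF supplied 2.26% in untreated NB4 and 15.3% at 24 h. With 1 library a condition, whether neighbours in these orders differ beyond their spread cannot be told.

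**Figure D4:**
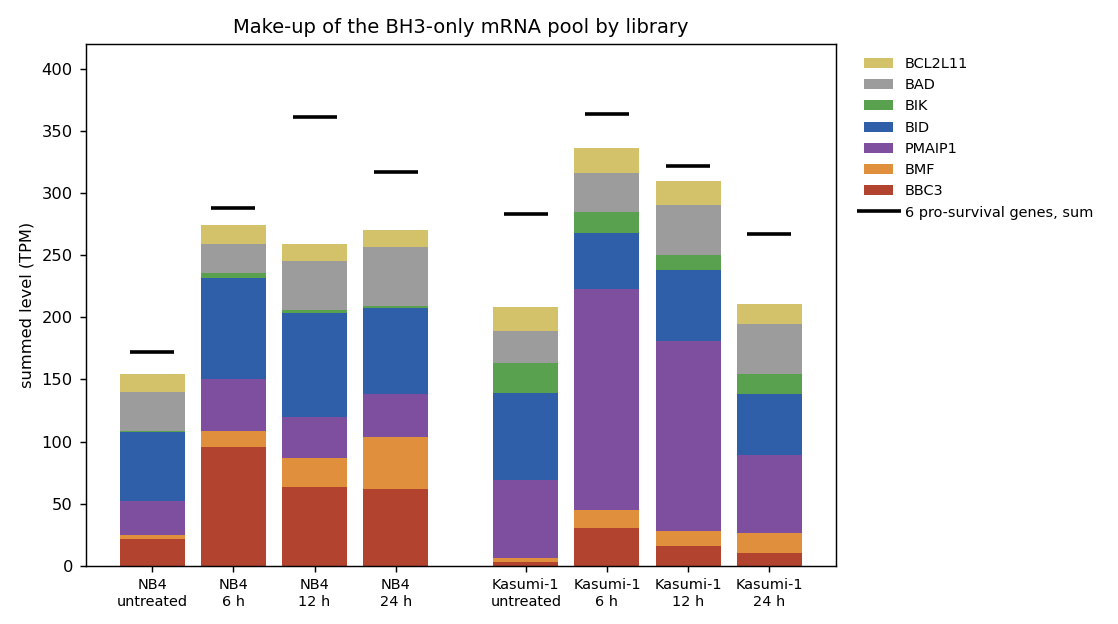
Summed level in TPM (vertical axis, from 0) of the BH3-only genes in each library, split by gene (HRK is too low to draw), with a black line for the sum of 6 pro-survival genes. BBC3 and BMF take more of the bar in treated than in untreated NB4, PMAIP1 is the largest piece in treated Kasumi-1, and the black line lies above the bar in all 8 libraries.

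The pro-survival partners that BH3-only proteins bind were compared on the same scale. Their 6 genes summed to 172.1, 288.1, 361.6 and 317.2 TPM in NB4 (untreated, 6, 12 and 24 h) and to 283.3, 363.5, 321.7 and 267.4 TPM in Kasumi-1. The ratio of the BH3-only sum to this sum in NB4 came to 0.90, 0.95, 0.72 and 0.85 (untreated, 6, 12 and 24 h), and in Kasumi-1 to 0.74, 0.93, 0.96 and 0.79. By limma 0 of the 5 tested partners passed over all genes for the shared response. Limma's unadjusted p was under 0.05 for 3 higher (BCL2A1, BCL2L2 and MCL1) and 0 lower, against 9.3% and 11.1% of all genes. BCL2A1, a partner of NOXA, had a shared log2 difference of 2.65 (SE 0.39, limma adjusted p = 0.0748). NB4 had 4.78, 16.0, 42.2 and 43.8 TPM of it (untreated, 6, 12 and 24 h), and Kasumi-1 had 0.515, 10.3, 16.2 and 5.35 TPM. BCL2A1 was at least 2-fold higher at all 3 times in both lines, as were 0.28% of genes. Its changes in Kasumi-1 rest on an untreated level below 1 TPM. MCL1, the other main partner of NOXA, differed by 0.59 over both lines and BCL2L2 by 0.74. MCL1 changed by 0.86, 1.12 and 0.92 in NB4 after 6, 12 and 24 h, and by 0.47, 0.28 and -0.12 in Kasumi-1. BCL2L2 changed by 1.28, 1.26 and 0.99 in NB4 at these times, and by 0.22, -0.13 and 0.82 in Kasumi-1. The response differences of MCL1 and BCL2L2 did not pass (limma adjusted p = 0.484 and 0.567). BCL2 differed by -0.07 over both lines, with -0.29, -0.28 and -0.56 in NB4 after 6, 12 and 24 h, and 0.49, -0.14 and 0.34 for Kasumi-1. BCL2L1 differed by -0.23 over both lines, with 0.03, 0.33 and 0.02 in NB4 at these times, and -0.48, -0.61 and -0.66 for Kasumi-1. The response differences of BCL2 and BCL2L1 between the lines did not pass (limma adjusted p = 0.642 and 0.428). BCL2L10 was at or below 0.627 TPM. Of the 3 effectors 0 passed (0 at an unadjusted p under 0.05 in limma), with shared log2 differences of 0.13 for BAX, -0.01 for BAK1 and 0.57 for BOK. BOK was at or below 0.192 TPM in NB4, whereas Kasumi-1 had 5.05, 27.7, 11.4 and 6.22 TPM (untreated, 6, 12 and 24 h), past 2-fold at 6 and 12 h. The response difference of BOK was -1.21 (SE 0.89, limma adjusted p = 0.684).

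FOXO factors, stress response factors and 3 further tested regulators, all known to act on BH3-only promoters, were counted with other targets of theirs in the same fit, in which 0 of the genes in these lists passed over all genes. In the FOXO axis (12 tested), limma gave 4 genes higher and 3 lower by unadjusted p-values under 0.05, against 9.3% and 11.1% of all genes. KLF6 (1.75), BCL6 (1.31) and TXNIP (-1.49) were the ones past 1 in log2 difference, with limma adjusted p = 0.108, 0.116 and 0.0607, while FOXO1, FOXO3 and FOXO4 differed by -0.08, -0.01 and 0.46.

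In the stress response axis (10 tested), 2 were higher and 1 lower by the same unadjusted limma p-values, against the same 9.3% and 11.1% of all genes. The 2 higher were PPP1R15A and ATF4, and the 1 lower was SESN2 (-0.74, SE 0.28, limma adjusted p = 0.206). SESN2 changed by -0.64, -1.58 and -1.55 in NB4 after 6, 12 and 24 h, and by 0.11, 0.03 and -0.80 in Kasumi-1. PPP1R15A, which encodes a phosphatase subunit that reverses the translation block, differed by 1.21 (SE 0.30, limma adjusted p = 0.117). ATF4 differed by 0.46. DDIT3, which encodes CHOP, differed by 0.24 over both lines, with -0.38, -0.30 and -0.61 in NB4 after 6, 12 and 24 h, and 1.05, 1.14 and 0.55 for Kasumi-1. That difference between the lines, -1.34 for NB4 minus Kasumi-1, did not pass (SE 0.37, limma adjusted p = 0.315). ATF4 stood at 548.8, 809.9, 636.6 and 626.0 TPM in NB4 (untreated, 6, 12 and 24 h) and at 579.8, 1072, 892.0 and 698.0 TPM in Kasumi-1, highest at 6 h in both lines. The FOXO factors, ATF4 and DDIT3 were named here for their role after their values were seen. Of 3 tested other regulators, JUN, a subunit of AP-1, differed by 1.83 (SE 0.45, limma adjusted p = 0.116) and was the 1 higher by unadjusted limma p under 0.05, and MYC (-0.85, limma adjusted p = 0.137) was the 1 lower. JUN stood at 10.3, 27.2, 39.8 and 43.3 TPM in NB4 (untreated, 6, 12 and 24 h), and in Kasumi-1 at 38.4, 221.5, 258.5 and 60.2 TPM.

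Genes for proteins that hold, modify or act after BH3-only proteins had 0 calls over all genes too. The counts by unadjusted limma p under 0.05 given next stand against 9.3% of all genes higher and 11.1% lower. Of 8 tested sequestering partners, the 14-3-3 genes YWHAE (-0.44) and YWHAQ (-0.42) were lower and 0 higher by unadjusted limma p under 0.05 (adjusted p = 0.163 and 0.154). Of 11 kinases, phosphatases and ligases, PIM2, a survival kinase that phosphorylates BAD, was higher at that level (0.49, limma adjusted p = 0.213). PIM1, a kinase of the same family, differed by 0.77 over both lines (limma adjusted p = 0.368). PIM1 changed by 1.41, 1.28 and 1.12 in NB4 after 6, 12 and 24 h, and by 1.74, -0.04 and -0.90 in Kasumi-1. In NB4 it was thus at least 2-fold higher at all 3 times, as were 2.03% of genes. The response difference of PIM1 did not pass (limma adjusted p = 0.809). Of 3 tested genes of BID cleavage and docking, 0 were past an unadjusted p of 0.05 in limma, and MTCH2, the mitochondrial dock of cleaved BID, differed by -0.24. GZMB, which encodes a protease that can cleave BID, was at 0 in all 8 libraries. Of 7 genes of mitochondrial execution, XIAP, a caspase inhibitor, was higher at that level (0.70, limma adjusted p = 0.167). DIABLO, an antagonist of XIAP, differed by -0.54 over both lines (limma adjusted p = 0.355). Its changes were 0.56, 0.02 and -0.32 in NB4 after 6, 12 and 24 h, and -1.21, -1.01 and -1.26 for Kasumi-1. In Kasumi-1 DIABLO was thus at least 2-fold lower at all 3 times, as were 0.655% of genes. The response difference of DIABLO, 1.25, did not pass (SE 0.44, limma adjusted p = 0.4). Of 5 tested other BCL2 homology proteins, BNIP3 was lower by unadjusted limma p under 0.05 (-0.30, limma adjusted p = 0.242).

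The members were also set beside the genes with the most similar profiles. Over the 8 libraries, the genes whose log2(TPM + 1) was most like BBC3 were UBE2A, MTMR10 and CCNYL1 (Pearson correlation 0.99, 0.98 and 0.98). For BMF they were ACSS2, ACOT9 and MIR1227 (0.99, 0.96 and 0.96), and for PMAIP1 IL1RAP, RHOA and CD8A (0.99, 0.98 and 0.98). The nearest gene was TMEM52 for BCL2L11 (0.98), MRPS36 for BID (0.96), RP13-644M16.4 for BIK (0.99) and RPL24P2 for BAD (0.96). BBC3 and BMF correlated with each other at 0.66. With 14650 genes and 8 libraries that share their line and untreated library, such values only describe the profiles.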

How the data were processed

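Total RNA of NB4 and Kasumi-1 was sequenced. Per the submitters' processing notes, HISAT2, StringTie and hg19 were used, with versions, options, annotation and strand handling not given in the sources used here. The deposited columns are named TPM, FPKM and Coverage. TPM is taken here as a length-scaled abundance with the same total per library, and FPKM as scaled for length and depth. Coverage is taken as the mean read depth of a gene, which the column name does not define.

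Values were summed by gene name (301 of 55765 names had more than 1 row). Genes averaging 1 TPM or more (14650) were tested on log2(TPM + 1), which understates changes of low genes, with limma 3.58.1 in R 4.3.3 (trend, two-sided, Benjamini-Hochberg over all genes tested, threshold 0.05). The shared response, 24 h minus 6 h and line difference came from cell line plus time as a factor, the response difference from line, treatment and their product (4 residual degrees of freedom). The fits were tested on simulated data. Python 3.11.15, pandas 2.3.3, numpy 2.4.6 and matplotlib 3.10.9 did the rest. Alternatives were the pseudocount, filters, FPKM, rescaling, trend, times as repeats, and leaving out each library.

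The members and lists were chosen with earlier results of these data known. The text names all members, all pro-survival partners and effectors, and, in the other lists it reports, genes past a log2 difference of 1 or up to 3 with the largest changes. Markers of erythroid, T, epithelial and fibroblast cells served as a check of the cells. One list, some listed genes and a motif are not reported here.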

Additional observations from a re-analysis of the deposited data

Results flagged for a closer look

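BID and BIK drew attention because every treated library lay above its untreated library in NB4 and below it in Kasumi-1. The response in NB4 minus that in Kasumi-1 was 0.97 (log2) for BID, with changes of 0.32 to 0.59 in NB4 and -0.62 to -0.30 in Kasumi-1. For BIK it was 1.23, with changes of 0.33 to 1.03 in NB4 and -0.91 to -0.50 in Kasumi-1. Neither difference passed in limma after adjustment over all genes (adjusted p = 0.315 and 0.428), and 982 of 14650 genes (6.7%) showed the same pair of directions. Each line's 3 changes share 1 untreated library. BIK in NB4 was never above 3.94 TPM.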

How the results depend on the processing

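Of 392 member values recomputed under the alternatives, 361 kept their direction and side of the threshold, 8 newly passed it (BBC3, BMF, BCL2L11 and BID, as given above), 0 lost it, and 23 changed sign without passing (BID and BIK for the shared response and 24 h minus 6 h, BAD for the line difference, BCL2L11 for the response difference). The shared difference of BIK was 0.078 with a pseudocount of 0.1 and 0.0081 with rescaled TPM, and 24 h minus 6 h of BID was 0.011 with FPKM and 0.013 with rescaled TPM. The line difference of BAD was -0.012 with FPKM and -0.0868 with rescaled TPM, and the response difference of BCL2L11 -0.014 and -0.024. Over the fits without 1 library, the shared difference ran from -0.48 to 0.49 for BID and from -0.65 to 0.59 for BIK, 24 h minus 6 h from -0.36 to 0.23 for BID and from -0.78 to 0.0393 for BIK, the line difference of BAD from -0.0799 to 0.144, and the response difference of BCL2L11 from -0.0533 to 0.102. For the shared response the genes higher (4) became 0 with a pseudocount of 0.1 or with no filter, 1 with FPKM, 21 with a mean of at least 5 TPM, 15 with rescaled TPM and 78 with times as repeats, and the genes lower (0) became 6, 2 and 55 under the last 3. Members higher (0) became 1 with a mean of at least 5 TPM, 1 with rescaled TPM and 2 with times as repeats. For the response difference the genes called (13 higher, 6 lower) became 272 and 256 with no filter; the cause of these moves was not tested. Leaving out each library gave 0 to 43 genes higher and 0 to 7 lower for the shared response, 0 to 2 and 0 to 4 for 24 h minus 6 h (the highest both without the 24 h NB4 library), 0 to 17 and 0 to 14 for the response difference, and 1 to 2 members higher for the line difference. The shared count higher was 43 without the untreated Kasumi-1 library, 2 without the untreated NB4 one, 12 and 10 when the 24 h library of Kasumi-1 or of NB4 was left out, and 0 when NB4 12 h, Kasumi-1 6 h or Kasumi-1 12 h was. The response count was 0 higher and 0 lower without the 12 h Kasumi-1 library, 1 and 2 or 3 and 2 without NB4 at 12 or 24 h, 5 and 1 without the 6 h Kasumi-1 library, and 17 and 14 without the 24 h one. The response difference could not be fitted without an untreated library. No paired analysis was possible because no condition has replicate numbers to pair; treated and untreated libraries were compared within lines through the cell line term. Depth limits HRK most, and then BBC3 in untreated Kasumi-1 and BCL2L11, with mean coverages down to 2.14 and 4.18 reads per base. Mean coverage was also low for BIK in untreated NB4 (5.42) and for BMF in untreated NB4 (7.30) and untreated Kasumi-1 (5.77).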
